A study of Mus musculus with 4 samples.

Results

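The genes described here encode enzymes that write and erase methyl and acetyl groups on histones, the proteins around which DNA is wound, with some subunits that those enzymes need. The list held 47 genes, and 46 of them had a probe set to which the array's annotation gives that gene alone (Suv39h1 was not analysed here). These 46 genes were read by 104 probe sets, of 18193 genes and 45037 probe sets in all. The rule that finds the members uses gene names and no measured value. They were read in hematopoietic stem cells (HSC, 2 samples) and in multipotent progenitors (MPP, 2 samples), the population into which HSC mature. Both came from C57BL/6 mice and were sorted from the KSL fraction of blood-forming cells, HSC without the surface protein CD34 and MPP with it. Neither treatment nor age is given in the labels, nor whether the cells of several mice were pooled. RNA equivalent to 3000 cells was amplified in 2 cycles and hybridised to 1 Affymetrix Mouse Genome 430 2.0 array per sample, on which a probe set gives a signal intensity in arbitrary units. Each group held 2 arrays labelled as biological replicates, and p-values here reflect only how far these samples scattered, which may be technical.

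Methyl groups on histone lysines act as marks whose meaning depends on the lysine. Methylation of lysine 4 of histone H3 (H3K4) marks promoters and enhancers in use, that of lysine 9 (H3K9) marks silent heterochromatin, and that of lysines 36 and 79 (H3K36 and H3K79) accompanies transcribed gene bodies. Acetyl groups loosen chromatin, and deacetylases remove them as parts of co-repressor complexes. In blood-forming cells, Kmt2a (also called Mll1) sustains Hox gene expression and is a frequent partner in leukemic fusions.

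Few of these genes passed the test between HSC and MPP after adjustment. Setd8, the enzyme that adds the single methyl group to lysine 20 of histone H4 (H4K20), fell in HSC. Hdac11, a deacetylase, and Kmt2a, an H3K4 methylase, rose on 1 of their 2 tested probe sets each. No other member passed the test, limma on log2(intensity + 6.01) with p-values adjusted by Benjamini-Hochberg over all probe sets tested and called at an adjusted p under 0.05. Of the 88 member probe sets bright enough to be tested, 3 were called (3.41%), against 10.6% of the 27022 probe sets tested on the whole array. Of these, 2 were higher in HSC, against 5.96% called higher on the whole array, and 1 lower, against 4.65% called lower. By the brightest tested probe set of each gene, its representative, 1 of 45 genes was called lower and none higher. Of the 12382 genes tested in all, 13.6% were called, 5.90% lower and 7.71% higher. In 17 member genes both HSC arrays read above both MPP arrays and in 8 below, which leaves 20 with overlap, and over all genes tested these shares were 35.3% above and 23.4% below, 58.7% without overlap. Of the 88 member probe sets, 30 lay above and 15 below, against 33.3% and 21.3% of all probe sets tested, 54.6% without overlap. At an unadjusted p under 0.05, 5 of the 45 genes were higher and 3 lower, 17.8% against 28.7% of all genes tested. Without HSC replicate 2, whose control probe sets stood apart from the other arrays, the median log2 difference (HSC minus MPP) was 0.12 over the member genes. It was 0.11 over all probe sets tested. Such a fit left 1 array in a group, so its p-values and calls reflect no scatter within that group. With all 4 arrays the member genes had a median log2 difference of 0.15, and all genes tested had 0.10. With the arrays scaled to equal medians these became -0.08 for the members and -0.13 over all probe sets tested (0.11 as deposited), and 17 of the 44 uncalled member genes changed sign. Without MPP replicate 1 the member median was 0.05, with 0.10 over all probe sets tested. The median also moved with brightness over the whole array, from 0.25 in the second of 10 classes of mean level to -0.10 in the brightest.

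**Figure D1:**
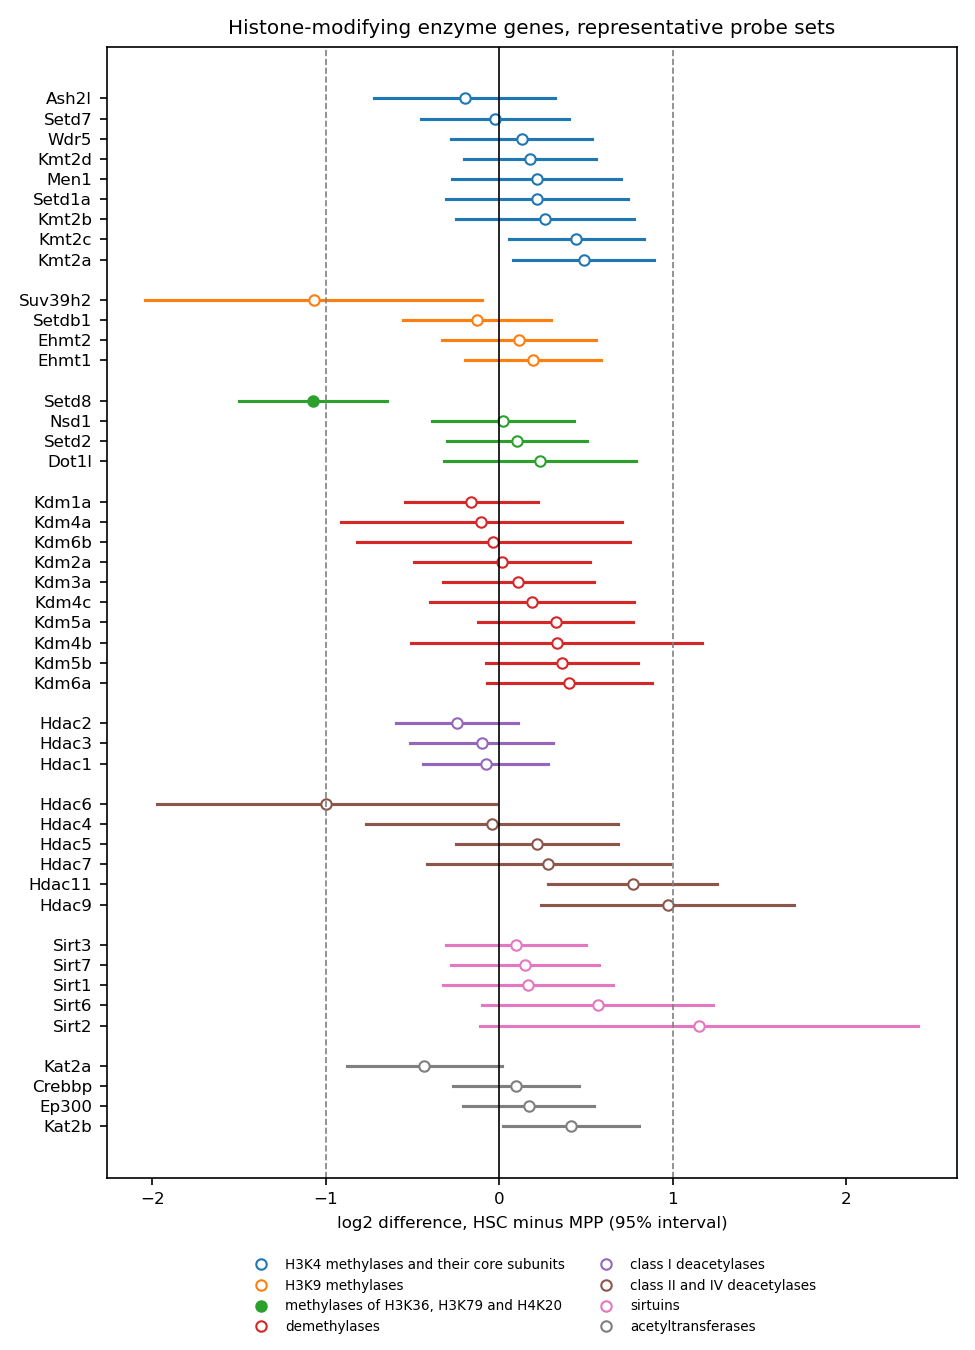
Log2 difference between HSC and MPP (x axis, HSC minus MPP) for the representative probe set of each of the 45 tested genes, grouped and coloured by role, with lines for the 95% interval of the fit, filled points for genes called and dashed lines at a log2 difference of 1 either way. Setd8 is the 1 filled point, and the intervals of 37 genes lie between the dashed lines.

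The intervals show how large a difference the arrays could have missed. For 37 of the 45 tested member genes, 82.2%, the whole 95% interval lay between log2 differences of -1 and 1, so that a difference beyond that size lay outside it. Over all genes tested the share was 50.2%. The members were measured somewhat more tightly, with a median half-width of the interval of 0.44 against 0.56 over all genes, and their differences were smaller, with a median size of 0.20 against 0.35. The 8 exceptions were Setd8, Hdac11, Hdac9, Hdac6, Suv39h2, Sirt2, Sirt6 and Kdm4b. Hdac8 was too dim on these arrays to be tested.

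**Figure D2:**
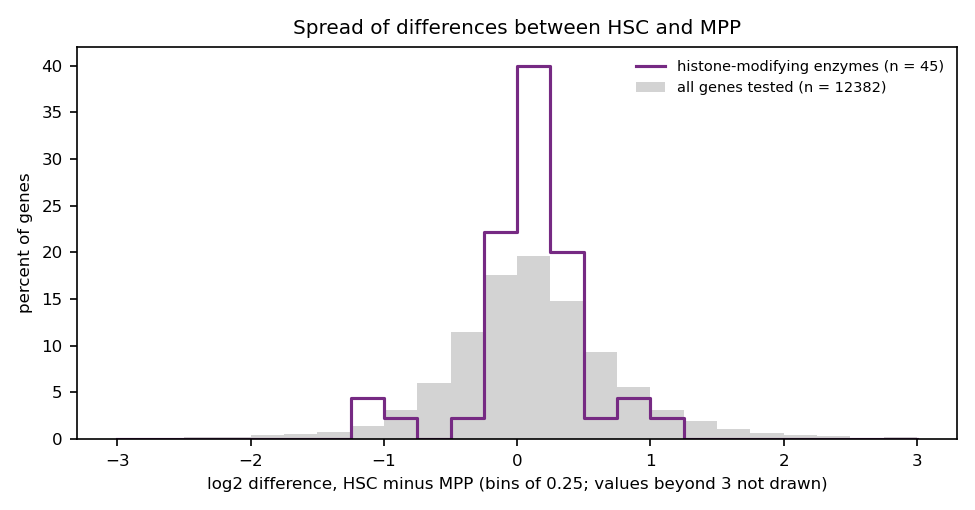
Percent of genes (y axis) by log2 difference between HSC and MPP (x axis, HSC minus MPP, bins of 0.25) for all 12382 genes tested (grey bars) and for the 45 tested histone-modifying enzyme genes (line). Of the 45 genes, 38 had a difference under 0.5 in size, 84.4% against 63.4% of all genes.

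The sort and the arrays were checked first at the RNA level. Of 9 genes known as HSC markers 8 were called higher in HSC, and all 3 MPP markers (Cd34, Flt3 and Cd48) were called lower. Markers of dividing cells were called lower in all 9 of 9 tested genes, by a median log2 difference of -2.29, with summed intensities of 1542 to 1921 on the HSC arrays and 7864 to 9627 on the MPP arrays. Granulocyte genes were called lower in 3 of 5 tested (summed intensities of 1046 to 1610 in HSC and 6882 to 8143 in MPP) and erythroid genes higher in 3 of 4 (1003 to 1668 and 77.4 to 92.4). Megakaryocyte genes were called higher in 2 of 4 (summed intensities of 766 to 1020 in HSC and 347 to 510 in MPP) and endothelial and stromal genes in 1 of 3, with Cdh5 at or below the signal of bacterial control probe sets (the floor) on every array. Of macrophage, mast cell and T and NK cell genes 1 was called lower in each list, of 3, 2 and 2 tested, and no B cell gene was called of 2 tested. Cd3e, Cd3g, Cd3d, Cd79a, C1qa and Slc4a1 were at or below the floor on every array. HSC replicate 2 stood apart in its controls. Its actin probe sets gave a 3' over 5' ratio of 9.42, where the other arrays gave 4.99 to 5.26, and its 18 hybridisation controls read 1.95-fold above the lowest array, against at most 1.13-fold elsewhere. Differences without it are given below for the members with a called probe set and for some other genes. These include the member with the smallest p in each role group without a call. In RNA from a whole sorted population, fewer cells of a kind and less RNA per cell cannot be told apart.

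The promoters of the 3 members with a called probe set are shown first, as the regulatory sequence next to the genes on which the comparison turned. They come from RefSeq on GRCm38.p6 and were limited to the bases before the annotated gene, written 5' to 3' on the gene's strand. Promoters were found for 38 of the 47 listed genes. Capitals mark matches to the motif CCAAT, on either strand, a sequence common in promoters of many kinds of gene. Also searched, on both strands, were TTTGGCGC, TTTCGCGC and TTTCCCGC, forms of the site of the cell cycle factor E2F, and TTTGAA, the core of the cell cycle homology region, and none of these 4 was found in the printed windows.
Setd8 (current symbol Kmt5a), chr5:124439680-124439929, + strand: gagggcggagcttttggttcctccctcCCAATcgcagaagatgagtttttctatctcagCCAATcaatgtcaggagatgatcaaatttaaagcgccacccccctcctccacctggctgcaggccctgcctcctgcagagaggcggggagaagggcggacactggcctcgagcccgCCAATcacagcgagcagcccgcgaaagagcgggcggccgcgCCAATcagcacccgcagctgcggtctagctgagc
Hdac11, chr6:91156565-91156669, + strand: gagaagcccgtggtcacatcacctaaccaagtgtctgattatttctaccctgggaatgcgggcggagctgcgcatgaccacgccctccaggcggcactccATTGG
Kmt2a, chr9:44881353-44881539, - strand: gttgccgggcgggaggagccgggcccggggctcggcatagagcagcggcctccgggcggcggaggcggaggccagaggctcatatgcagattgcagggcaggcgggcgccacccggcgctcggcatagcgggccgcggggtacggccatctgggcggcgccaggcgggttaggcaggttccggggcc

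RefSeq gives 3 promoter windows for Setd8, of which the one that lies before the annotated gene is printed. It held 4 matches to CCAAT in 250 bases, all on the gene's own strand, the nearest ending 30 bases before the gene, and the other 2 windows held 1 and 2. At least 4 matches were found in 0.84% of the 32851 RefSeq promoter windows of that length, and at least 1 in 33.8%. The shorter printed Hdac11 window, of 105 bases, held 1, in the last 5 bases before the gene. The printed Kmt2a window, of 187 bases, held none. Over all 54 promoter windows of the members, 35.2% held CCAAT, 9.26% TTTGAA and none an E2F form, against 33.8%, 16.0% and 1.53% of all windows. A match to such short letters is a description of the sequence and does not show a bound site.

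The methylases of H3K4 and their core subunits were tested in all 9 genes. Kmt2a is the founding member of the family of large H3K4 methylases. Of its 2 probe sets, the one that is not the representative read 216 and 190 units in HSC and 122 and 110 in MPP. Both HSC arrays were above both MPP arrays. That came to 0.77 on the log2 scale, with an SE of 0.21 and a limma adjusted p of 0.0448, or 1.71-fold. The representative probe set read 332 and 342 units in HSC and 239 and 239 in MPP, also without overlap, but its log2 difference of 0.49 (SE 0.18, and 0.46 without HSC replicate 2) was not called (limma adjusted p = 0.128). The call on the first of these probe sets was lost in 7 of 13 alternatives. It was lost without HSC replicate 1 (0.68) and without MPP replicate 1 or 2 (0.85 and 0.70). Quantile normalization and equal array medians also ended it (0.70 and 0.54, limma adjusted p = 0.0775 and 0.145). So did no filter on dim probe sets and no trend in the prior variance (0.77 in both, limma adjusted p = 0.0753 and 0.133). Without HSC replicate 2 the difference on that probe set was 0.86.

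The other H3K4 genes were not called. Kmt2c, a methylase of enhancers, read 1057 and 866 units in HSC and 759 and 648 in MPP on its representative probe set, a log2 difference of 0.44 (95% interval 0.06 to 0.83, limma adjusted p = 0.147). It was called only without HSC replicate 2 (0.59, adjusted p = 0.0468), and it was 0.21 with equal array medians. All 4 of its tested probe sets had differences above 0, from 0.08 to 0.44. Kmt2b and Kmt2d, its relatives, had representative differences of 0.26 and 0.18, and Setd1a, the catalytic subunit of another H3K4 methylase complex, 0.22. The shared subunits Wdr5 and Ash2l, on which the large methylase complexes depend, were at 0.13 and -0.20, and Men1 (menin), which holds Kmt2a and Kmt2b on chromatin, at 0.22. Setd7, which adds a single methyl group, was at -0.02. As deposited, 7 of the 9 representative differences were above 0 (median 0.22, and 0.12 without HSC replicate 2), but with equal array medians 3 were (median -0.02). In 5 of the 9 genes both HSC arrays read above both MPP arrays, against 35.3% of all genes tested.

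H3K9 methylases included the lowest uncalled difference by representative probe set. Suv39h2, which trimethylates H3K9 in heterochromatin, read 10.6 and 15.4 units in HSC and 44.6 and 24.97 in MPP. Both HSC values lay below the floor. The mean MPP level was 1.99-fold over the floor of the HSC arrays, a value that rests more on MPP replicate 1. The fitted log2 difference was -1.07 (95% interval -2.04 to -0.10, limma adjusted p = 0.163). A second tested probe set read 13.4 and 4.13 units in HSC and 33.7 and 15.1 in MPP (-1.04, limma adjusted p = 0.281), again with no overlap. Its mean MPP level was 1.34-fold over the floor of the HSC arrays. Over the alternatives, which include leaving out each array, the difference of the representative ran from -1.42 to -0.65 (-1.25 without HSC replicate 2) and was not called in any. Setdb1, which silences retroelements, was at -0.13 by its representative probe set, and the euchromatic H3K9 methylases Ehmt1 and Ehmt2 were at 0.20 and 0.12.

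Of the methylases of H3K36, H3K79 and H4K20, Setd8 was called and the other 3 were not. Setd8 is needed for genome stability during division, and its protein is broken down in S phase. Its representative probe set read 160 and 165 units in HSC and 370 and 330 in MPP, with 163 ± 4.11 (SD, n = 2) against 350 ± 28.5 (SD, n = 2). The HSC arrays were close together and well below both MPP arrays. HSC were 2.11-fold lower, a log2 difference of -1.08 with a 95% interval of -1.50 to -0.65 (SE 0.19, limma adjusted p = 0.00538). A second tested probe set read 131 and 185 units in HSC and 279 and 240 in MPP, also with no overlap, and its difference of -0.71 (SE 0.23) was not called (limma adjusted p = 0.0746). The call on the representative ended without MPP replicate 1 (-0.99, adjusted p = 0.0570) and without a trend in the prior variance (-1.08, adjusted p = 0.0667). Without HSC replicate 2 the 2 probe sets stood at -1.10 and -0.95. The markers of dividing cells moved in the same direction as Setd8, and their part in its difference was not tested. Nsd1 and Setd2, which methylate H3K36, were at 0.02 and 0.10, and Dot1l, the H3K79 methylase, at 0.24, with intervals within -0.39 to 0.79.

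**Figure D3:**
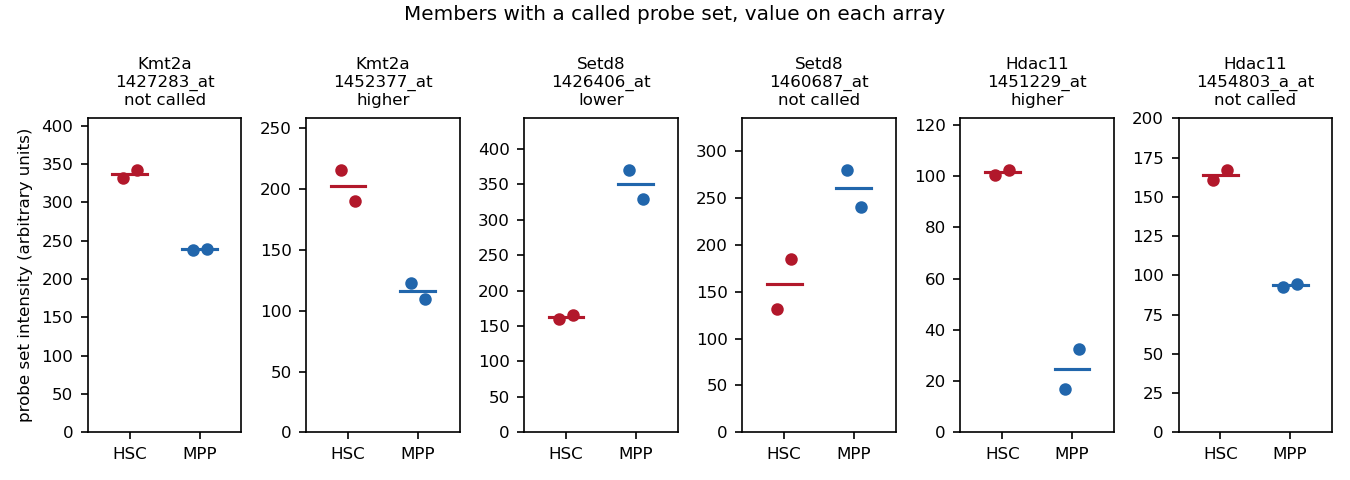
Probe set intensity in arbitrary units (y axis, each panel from 0 on its own scale) on the 2 HSC arrays (red) and the 2 MPP arrays (blue) for the tested probe sets of Kmt2a, Setd8 and Hdac11, with a bar at each group's mean. In all 6 panels the groups do not overlap, and the panel titles say which probe sets were called.

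None of the 10 demethylases was called. Their log2 differences ran from -0.16 to 0.40 with a median of 0.15, which rested on single arrays. That median was -0.00273 without MPP replicate 1, 0.31 without MPP replicate 2, 0.06 without HSC replicate 1, and 0.33 without HSC replicate 2. Scaling to equal array medians gave -0.08. As deposited, 7 of the 10 were above 0, and at an unadjusted p under 0.05 no representative was past the threshold in either direction. Kdm1a (Lsd1), which removes methyl groups from H3K4 as part of a co-repressor complex, read 430 and 411 units in HSC and 496 and 447 in MPP, a log2 difference of -0.16 (95% interval -0.54 to 0.22, limma adjusted p = 0.618). On its other tested probe set Kdm1a read 90.2 and 70.2 units in HSC and 150 and 98.5 in MPP, without overlap. That difference was -0.58 (95% interval -1.19 to 0.03, limma adjusted p = 0.233). Kdm6a, which removes the Polycomb mark from lysine 27 of histone H3, had the highest representative difference, with 287 and 394 units in HSC against 229 and 279 in MPP (0.40, 95% interval -0.07 to 0.88, limma adjusted p = 0.285). Kdm5b and Kdm5a, which erase H3K4 methylation, were at 0.36 and 0.33. All 4 tested probe sets of Kdm5b had differences above 0, from 0.20 to 1.02. The 1.02 came from a dim probe set that read 21.2 and 43.1 units in HSC and 5.38 and 22.5 in MPP. Its groups overlapped, and MPP replicate 1 lay below the floor.

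Kdm6b, which acts on the same mark as Kdm6a, was the demethylase with the smallest p on any probe set. On 1 of its 3 tested probe sets it read 39.8 and 40.8 units in HSC and 50.4 and 134 in MPP (-0.94, limma adjusted p = 0.176). MPP replicate 2 alone was high. On its representative probe set the same array again stood out, at 309 units against 119 in MPP replicate 1 and 174 and 203 in HSC (-0.04, limma adjusted p = 0.967). Without MPP replicate 1 the difference on the first of these rested on the high array alone in MPP and was -1.59. It was -0.28 without MPP replicate 2 and -0.96 without HSC replicate 2. The H3K9 demethylases Kdm3a, Kdm4a, Kdm4b and Kdm4c lay between -0.10 and 0.33, and the H3K36 demethylase Kdm2a at 0.02.

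The class I deacetylases, the catalytic core of nuclear co-repressor complexes, read slightly lower on the HSC arrays, by amounts that were not called. Hdac2 read 970 and 1130 units in HSC and 1241 and 1237 in MPP on its representative probe set, a log2 difference of -0.24 (95% interval -0.59 to 0.11, limma adjusted p = 0.393). Its other 2 tested probe sets were at -0.31 and -0.43, the latter at -0.40 without HSC replicate 2. Hdac1 read 599 and 634 units in HSC and 638 and 665 in MPP (-0.08, 95% interval -0.44 to 0.28), and Hdac3 264 and 251 in HSC and 269 and 284 in MPP (-0.10, 95% interval -0.51 to 0.31). In all 5 tested probe sets of the class both HSC arrays read below both MPP arrays, where 21.3% of all probe sets tested did so. Of these probe sets 3 read Hdac2 and are not independent. By gene it was 3 of 3 tested, against 23.4% of all genes tested. Over the whole array the median log2 difference was -0.10 in the brightest of 10 classes of mean level and -0.05 in the next. Hdac1 (-0.08) lay in the brightest class and Hdac3 (-0.10) in the next. The probe sets of Hdac2 at -0.24 and -0.31 lay in those same classes. Its probe set at -0.43 lay in class 6, counted from the dimmest, where the median was 0.12. The part of brightness in these differences was not tested. After quantile normalization 2 of the 3 representative differences were below 0 and that of Hdac1 was not. Hdac8 read above the floor on HSC replicate 1 alone, at 32.3 units against 2.84 to 6.74 on the other arrays.

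The remaining zinc-dependent deacetylases spread more widely. Hdac11, the 1 member of class IV, read 100 and 102 units in HSC and 17.0 and 32.5 in MPP on its tested probe set that is not the representative. The HSC arrays were nearly equal, and both MPP arrays were far below them. The log2 difference, 1.85 (SE 0.33, 95% interval 1.12 to 2.58, limma adjusted p = 0.00534), or 3.60-fold, had the largest size among the 88 tested member probe sets. It was called in all 13 alternatives run on it, some of which left 1 array in a group, and ran from 1.38 to 2.22. It was 1.84 without HSC replicate 2. The representative probe set read 160 and 167 units in HSC and 92.6 and 94.7 in MPP, without overlap, but its difference of 0.77 (SE 0.22) just missed a call (limma adjusted p = 0.0506) and was 0.74 without HSC replicate 2. The probe sets of Hdac11 gave the same direction and different sizes, and which transcripts each reads was not analysed here.

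In class II, Hdac9 and Hdac6 had the largest differences and were not called. Hdac9, a class IIa enzyme that acts with transcription factors, read 174 and 137 units in HSC and 51.1 and 111 in MPP (0.97, 95% interval 0.24 to 1.70, limma adjusted p = 0.0934). MPP replicate 1 was the low array. Without MPP replicate 2 the difference rested on that array alone in MPP and was 1.49. Without MPP replicate 1 it was 0.45, and without HSC replicate 2 it was 1.14. Hdac6, the cytoplasmic deacetylase of tubulin, read 61.7 and 18.6 units in HSC and 91.2 and 62.3 in MPP (-0.996, 95% interval -1.98 to -0.02, limma adjusted p = 0.197). HSC replicate 2 was the low array, near its floor of 16.7 units. Without HSC replicate 1 the difference rested on that array alone in HSC and was -1.72. Without HSC replicate 2 it was -0.27. Hdac4, Hdac5 and Hdac7, the other class IIa enzymes, lay at -0.04, 0.22 and 0.28. A further probe set of Hdac7, too dim to be tested, went the other way. It read 1.52 and 6.12 units in HSC, both below the floor, and 22.8 and 32.1 in MPP.

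None of the 5 sirtuins, deacetylases that use NAD, was called. Sirt1, which deacetylates p53 and FOXO factors besides histones, read 427 and 362 units in HSC and 285 and 430 in MPP (0.16, 95% interval -0.33 to 0.66). Sirt2, a mainly cytoplasmic member, read 110 and 104 units in HSC and 16.7 and 108 in MPP. MPP replicate 1 alone was low. The log2 difference of Sirt2 was 1.15 (95% interval -0.11 to 2.42, limma adjusted p = 0.249), and it was -0.01 without MPP replicate 1, 2.31 without MPP replicate 2 and 1.19 without HSC replicate 2. Sirt6, which guards telomeric chromatin, read 55.6 and 57.4 units in HSC and 34.9 and 37.5 in MPP without overlap (0.57, 95% interval -0.10 to 1.23, limma adjusted p = 0.283). The mitochondrial Sirt3 and the nucleolar Sirt7 were at 0.10 and 0.15.

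The 4 acetyltransferases were not called, although their representative values did not overlap between the groups in any of them, as in 58.7% of all genes tested. Kat2b (Pcaf) read 901 and 709 units in HSC and 623 and 575 in MPP (0.41, 95% interval 0.02 to 0.81, limma adjusted p = 0.183). It was called only without HSC replicate 2 (0.59, adjusted p = 0.0465). With equal array medians its difference was 0.18, and without HSC replicate 1 it was 0.24. Its paralog Kat2a (Gcn5) read 230 and 299 units in HSC and 378 and 336 in MPP (-0.43, 95% interval -0.88 to 0.01, limma adjusted p = 0.220). The other 2 tested probe sets of Kat2a were at 0.23 and 0.19, so its probe sets disagreed in sign. The co-activators Ep300 and Crebbp were at 0.17 and 0.10, with intervals within -0.26 to 0.55.

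Probe sets of the same gene offered a check within each array. Of 25 member genes with more than 1 tested probe set, 15 had every tested probe set on one side of 0 and 10 had them on both sides. No member had probe sets called in opposite directions. Setd8, Suv39h2, Hdac2 and Hdac11 were among the 15, and Kat2a, Kat2b, Wdr5, Ash2l and Setd1a among the 10. Probe sets of 1 gene share their RNA and array and are not replicates of the comparison.

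**Figure D4:**
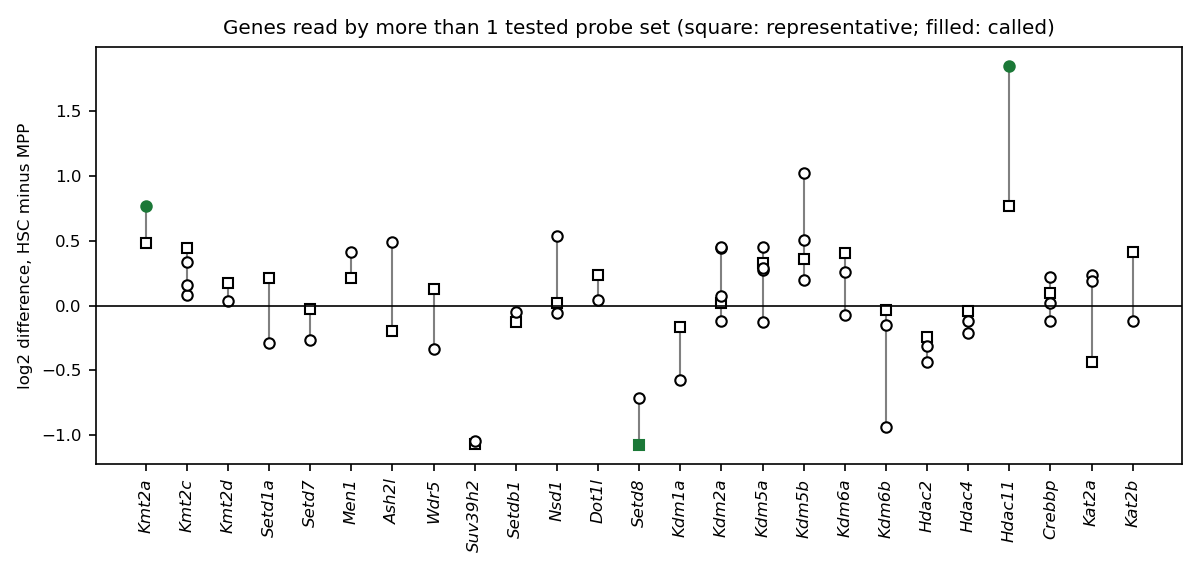
Log2 difference between HSC and MPP (y axis, HSC minus MPP) of each tested probe set for the 25 genes read by more than 1, with a square for the representative probe set and filled symbols for those called. Kmt2a and Hdac11 were called on the probe set that is not the representative, and Setd8 on the representative.

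Other genes of histone methylation and acetylation were counted in 6 further lists of 89 genes, of which 83 were tested by representative probe set. In all, 4 were called lower in HSC and none higher, against 5.90% and 7.71% of all genes tested. At an unadjusted p under 0.05, 16 were lower and 4 higher, a threshold passed by 28.7% of all genes tested. Hat1, which acetylates newly made histone H4 before it is laid down on DNA, read 340 and 340 units in HSC and 779 and 705 in MPP, 2.16-fold lower in HSC (log2 difference -1.11, SE 0.17, limma adjusted p = 0.00221). Sap30, a subunit of the Sin3 deacetylase complex, read 229 and 220 units in HSC and 449 and 441 in MPP (-0.97, limma adjusted p = 0.00644). The difference of Hat1 ran from -1.34 to -1.04 over the alternatives (-1.11 without HSC replicate 2). None of the 4 called genes kept its call with no trend in the prior variance (adjusted p = 0.0607 for Hat1, 0.0782 for Sap30, 0.145 for Brd7 and 0.176 for Hcfc1). Sap30 lost it without MPP replicate 1 or 2 (-0.96 and -0.98, adjusted p = 0.0557 and 0.0502).

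Brd7, a bromodomain protein, was at -0.72 (limma adjusted p = 0.0336), and Hcfc1, a partner of H3K4 methylases, at -0.65 (limma adjusted p = 0.0424). Brd7 lost its call without HSC replicate 1 (-0.64, adjusted p = 0.0515) and without either MPP array (-0.70 and -0.74, adjusted p = 0.201 and 0.177). Hcfc1 lost it without HSC replicate 2 (-0.60, adjusted p = 0.0658), without either MPP array (-0.56 and -0.75, adjusted p = 0.313 and 0.148) and after quantile normalization (-0.62, adjusted p = 0.0642). By list, the calls were 1 of 9 partners of the H3K4 methylases (median -0.27), 1 of 22 co-repressor subunits and further deacetylases (-0.15), 1 of 19 other acetyltransferases and partners (0.05) and 1 of 8 bromodomain readers (-0.06). None of 16 other writers of histone methylation (0.03) and none of 9 other demethylases (-0.06) was called, with 2 higher and 3 lower, and 2 higher and 1 lower, at an unadjusted p under 0.05. With equal array medians 11 of the 83 genes were called lower, and 10 with replicate number added to the fit as a block. Over all 27022 probe sets tested, lower calls also rose, from 1257 as deposited to 2379 with equal array medians and 1833 with the block. With no filter on dim probe sets 2 were called lower, and with no trend in the prior variance none. After quantile normalization 3 were called lower and 1 higher. With the mean of all tested probe sets of a gene 4 were called lower and 1 higher. Counts moved in both directions when an array was left out, in fits with 1 array in a group. The median log2 difference of the 83 genes was -0.06 on all arrays. It ran from -0.13 (without MPP replicate 1) to -0.05 (without HSC replicate 1). Markers of dividing cells were lower alongside these genes, and their part in these differences was not tested.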

How the data were processed

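The authors deposited 1 intensity per probe set and array, on a linear scale, for 4 arrays, and the sources used here do not give the software behind these values. The deposited values had a mean of about 100.0 on every array without the lowest and highest 2%, so each array had been scaled, and no detection calls were used here. RNA amplification in 2 cycles, per the labels' protocols, favours the 3' ends of transcripts. Of 45101 probe sets, 64 controls were left out. Of the rest, 34945 had 1 gene symbol in the platform annotation, 932 several and 9160 none, and 34741 of the first matched RefSeq (GRCm38.p6). Genes were named from probe sets of the first kind only.

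The scale was log2(intensity + 6.01), with a pseudocount set to 0.25 of the overall median intensity, which understates the change of dim genes. Array medians on the log2 scale spanned 0.271, less than the 0.5 allowed for leaving the deposited values unnormalized. The lowest 40% of probe sets by mean level were left out. The fit was limma 3.58.1 (R 4.3.3), lmFit and eBayes with a trend, 2-sided, without covariates, with 2 residual and 8.48 prior degrees of freedom. It was tested on simulated data. The floor, 13.6 to 16.9 units, was the maximum over 27 Bacillus subtilis control probe sets on the same array. A level below it in both arrays of a group gives a bound on the fold.

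The members are listed by name, but the list, the other gene lists and the tests were chosen with earlier results of these data known. Values on every array were given for members with a called probe set and, in role groups without one, for the member with the smallest p, with further members added for comparison after their values were seen. Alternatives changed the pseudocount, the filter, the normalization, the prior, the probe sets used, the replicate block and the arrays. Intervals cover 95%, and 4 arrays limit their precision.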

Additional observations from a re-analysis of the deposited data

How the results depend on the processing

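Counts of called members were small, so 1 probe set moves them. Member probe sets higher in HSC (2) became 1 with no filter on dim probe sets, after quantile normalization, with equal array medians and with no trend in the prior variance. Those lower (1) became 2 with equal array medians and 0 with no trend. Member genes higher (0) became 1 with the pseudocount at the median of all values, with the lowest 60% left out and without probe sets ending in _x_at, _s_at or _a_at (Hdac11 each time), and 2 with the mean of all tested probe sets of a gene (Hdac11 and Kmt2a). Member genes lower (1, Setd8) became 0 with no trend. Leaving out 1 array left 1 in its group and moved the differences of several members. Setd8 lost its gene call without MPP replicate 1. Kat2b and Kmt2c were both at 0.59 without HSC replicate 2. Hdac9 was at 1.49 without MPP replicate 2, and Hdac6 at -1.72 without HSC replicate 1. The cause of these changes was not tested. The difference of Sirt2 reversed to -0.00912 without MPP replicate 1 and was 2.31 without MPP replicate 2.

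The groups share replicate numbers, but the labels do not say that these mark a shared animal or day, and the correlation of same-numbered deviations was 0.03 over all tested probe sets and 0.22 over the member probe sets. With 2 pairs this does not show that the numbers pair the samples, and the fit without the block was kept. With the replicate block, 5 member probe sets were higher and 4 lower, and 3 genes (Hdac11, Hdac9 and Sirt2) were higher and 2 (Hdac6 and Setd8) lower. Calls also rose over the whole array with the block, to 2525 higher and 1833 lower of 27022 probe sets tested. Of the 44 member genes not called, 26 changed sign in at least 1 of the alternatives, 17 of them with equal array medians, and none was called with its sign changed. Across all probe sets tested, the calls were 1611 higher and 1257 lower as deposited, and 1020 and 2379 with equal array medians.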
